A study of Mus musculus with 8 samples.

Results

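The cytosolic ribosomal protein genes were described in RNA from B16-F10 cells, an established mouse melanoma line. Members were the rows of the deposited table whose symbol was Rpl or Rps followed by a number and at most 1 suffix letter (a, l or x), together with Rplp0, Rplp1, Rplp2 and Rpsa. Names ending in -ps were left out. The rule found 81 of 46477 rows, 49 for the large subunit and 32 for the small subunit. It used names alone and no measured value, but it was set with earlier results of these data known. The 8 libraries gave a mean of 1 FPKM or more (FPKM is fragments per kilobase, scaled to library size) for 76 members, 45 large and 31 small, and for 6917 rows in all.

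The melanoma cells had been grown for 24 hours on the extracellular matrix that smooth muscle cells left behind after lysis and washing. In all 8 groups the smooth muscle cells had first received an siRNA for 72 hours and had then spent another 72 hours in 1 of 2 media, named SFM and TCM in the labels. TCM is read here as the tumor conditioned medium of the series title. The siRNAs were siNT, siFN, siKLF4 and the pair siKLF4-siFN, which makes 8 conditions with 1 library each. No melanoma cell received siRNA or conditioned medium itself, so the siRNA targets cannot be checked in these libraries. The species and origin of the smooth muscle cells were not given in the sources used here.

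Ribosomal proteins sit on the ribosomal RNA to form the large and the small ribosomal subunit, which join on a messenger RNA to translate it. Their genes are among the most highly expressed in growing cells, and in mammals many of their messenger RNAs begin with a run of pyrimidines, the 5′ terminal oligopyrimidine motif, through which mTOR signalling controls their translation. Nearly all of these genes have also left processed pseudogenes in the genome, copies of the spliced messenger RNA, and short reads can often not be told apart between gene and copy.

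The cells were checked by markers: 9 of 10 melanocyte markers passed the filter, with a summed level of 480.1 to 747 FPKM in the 8 libraries. Tyrp1 (249 FPKM) and Gpnmb (149 FPKM) had the highest means, and the marker that did not pass was Mitf (0.531 FPKM). Of 8 smooth muscle markers 1 passed, with a sum of 1.28 to 2.27 FPKM and Acta2 at 0, and none of 6 fibroblast or 5 endothelial markers passed. Of 6 leukocyte markers 1 passed, with a sum of 1.96 to 4.55 FPKM. Depth, estimated from the steps between low FPKM values, was roughly 11560000 to 23080000 reads a library. SFM siKLF4-siFN stood apart from the other libraries: over the tested genes its Spearman correlation of centred level with GC content was 0.53, against -0.43 to 0.21 in the other 7. TCM siFN and TCM siKLF4-siFN were the closest of the 28 pairs of libraries, with a median absolute log2 difference of 0.10 over the members and 0.06 over all tested genes. In bulk RNA, fewer cells of a type and less RNA per cell cannot be told apart.

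Coding stretches of 2 members and their copies are shown because they carry the main limit of these data. They are the first 90 bases of the longest reading frame in the GENCODE M21 transcripts (build GRCm38), lower case, with bases that differ from the other member of the pair in capitals. Rpl11, on chromosome 4 (chr4:136028265-136053428, minus strand), is set against its copy Gm10288. Rps12, on chromosome 10 (chr10:23785183-23787275, minus strand), is set against Rps12-ps3. The first pair differed at 1 base and the second at 0.
Rpl11: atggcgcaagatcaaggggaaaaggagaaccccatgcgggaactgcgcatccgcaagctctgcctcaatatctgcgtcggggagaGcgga
Gm10288: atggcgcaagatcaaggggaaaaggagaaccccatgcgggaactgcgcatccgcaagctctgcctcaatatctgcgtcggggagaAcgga
Rps12: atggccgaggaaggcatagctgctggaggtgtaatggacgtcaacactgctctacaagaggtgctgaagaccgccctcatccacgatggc
Rps12-ps3: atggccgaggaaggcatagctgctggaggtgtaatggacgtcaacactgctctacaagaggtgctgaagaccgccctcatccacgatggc
The rows of the copies held most of the signal: Gm10288 had a mean of 446 FPKM against 0.832 for Rpl11, and Rps12-ps3 had 1301 against 2.85 for Rps12. Despite its name, Rps12-ps3 is typed as protein coding in GENCODE M21. So are the copies Rpl10-ps3 (1470 FPKM) and Rpl9-ps6 (499.6 FPKM).

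Promoters were taken from RefSeq on build GRCm38.p6, with 300 bases for each gene from 250 before to 50 after its annotated start, and were found for 60 of the 81 members. A run of at least 6 pyrimidines within the 20 bases around the start was present in 31 of 60 members (51.7%) and in 23.0% of 27025 genes. It was present in 19 of 37 large and 12 of 23 small subunit members. These windows, 10 bases on each side of the start, show 4 members with a run, in capitals, and 3 without.
Rps6 (chr4:86857358-86857377, minus strand): gaagtcgggCCTCTTTTTCg
Rpl28 (chr7:4792955-4792974, plus strand): tctcgtgTCTCTCTTTCCgt
Rps15a (chr7:118116138-118116157, minus strand): tttctgccaTCTTCCCTCgc
Rpl12 (chr2:32961702-32961721, plus strand): agcaggatccgTCTTTTCgg
Rps12 (chr10:23787200-23787219, minus strand): tcatgcggccaccgccggcc
Rpl24 (chr16:55966265-55966284, plus strand): gctgttgctaggaaacagac
Rplp0 (chr5:115559457-115559476, plus strand): cgggtttcgaggaccgcctg

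The ETS-type motif CCGGAAG, searched on both strands of the 300 bases, was found in 25 of 60 members (41.7%) and in 9.93% of all genes. CTTTCC, searched on the gene's strand from 50 before to 50 after the start, was found in 19 of 60 (31.7%) against 5.43%, in 16 of 37 large but 3 of 23 small subunit members. All of its letters are pyrimidines, so a match near the start can also lie in the pyrimidine run above. GGGCGG, on both strands, was found in 36 members (60%) against 38.2%, and TATAAA in the 50 bases before the start in 0 of 60 against 3.15%. The 120 bases before the start are shown for the member with the smallest p between the media without siFN (Rps7), for the member farthest below its mean in SFM siKLF4-siFN (Rpl37) and for Rpl41, among the 5 highest, with CCGGAAG or its reverse complement in capitals.
Rps7 (chr12:28635954-28636073, minus strand): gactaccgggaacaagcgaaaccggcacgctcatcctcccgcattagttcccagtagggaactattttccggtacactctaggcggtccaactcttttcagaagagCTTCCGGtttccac
Rpl37 (chr15:5116493-5116612, plus strand): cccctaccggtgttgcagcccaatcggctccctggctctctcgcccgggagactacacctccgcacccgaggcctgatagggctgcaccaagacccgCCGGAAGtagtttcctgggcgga
Rpl41 (chr10:128549169-128549288, minus strand): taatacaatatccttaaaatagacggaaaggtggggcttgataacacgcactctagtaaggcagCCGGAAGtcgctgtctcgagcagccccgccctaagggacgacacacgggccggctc
A match of letters is a description of the sequence and not a measured site.

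The median member had a mean of 41.4 FPKM, against 3.33 for all 6917 tested genes. The median was 33.0 for the large and 55.9 for the small subunit, 16 members reached 100 FPKM and 11 of the 76 stayed under 10. The 5 highest were Rplp1 at 365.9, Rplp0 at 361, Rpl8 at 269.6, Rpl41 at 239.7 and Rpl32 at 216 FPKM. Rplp0 and Rplp1 belong to the acidic stalk of the large subunit, which recruits the elongation factors, and Rpl41 is the smallest ribosomal protein. Their stalk partner Rplp2 had 50.7 FPKM. At the low end stood Rpl24 at 1.60, Rpl38 at 2.07, Rps12 at 2.85, Rpl36a at 3.21 and Rpl5 at 3.27 FPKM. Ribosomal proteins outside the stalk are present in equal number in a ribosome, whereas the own-row FPKM of the members that passed outside the stalk spanned 1.60 to 269.6.

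The other 5 members did not pass. Rpl11, which binds the 5S ribosomal RNA together with Rpl5, lay just outside at 0.832 FPKM, and Rpl24 lay just inside. Rpl10l, Rpl39l and Rps4l were listed at 0 in all 8 libraries, and Rpl3l was listed at 0 in 7 of 8, with 0.0103 FPKM in SFM siKLF4. Rpl10l, Rpl39l and Rpl3l are paralogues known from testis or muscle. Their parents Rpl10, Rpl39 and Rpl3 had 19.6, 65.1 and 31.1 FPKM. The paralogue Rps27l, a p53 target, was present at 43.4 FPKM and its relative Rps27 at 6.11.

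Near-copies were counted as annotated or -ps named pseudogenes that share an exact run of 50 bases with a transcript of the member. Of the 81 members, 77 had at least 1, and 754 such rows were in the table. These rows held 18.2% to 25.2% of a library's summed FPKM and the 81 members 2.93% to 3.75%, so the copies summed to 6.0 to 6.85 times the members. In 55 of the 76 members the near-copies together exceeded the gene's own row, and in 35 the own row held less than 10% of the sum. The share was 0.213% for Rps12, 0.233% for Rpl24, 0.356% for Rpl5 and 1.30% for Rpl10. Rplp1 (98.7%), Rpl8 (99.8%), Rpl41 (99.1%) and Rplp2 (97.2%) kept nearly all of it on their own row. Across the 76 members, own-row level and summed copy level had a Spearman correlation of -0.55, a description over genes that share the same libraries. An FPKM of a member is therefore the level on its own row, and differences between members do not rank their messenger RNAs.

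**Figure D1:**
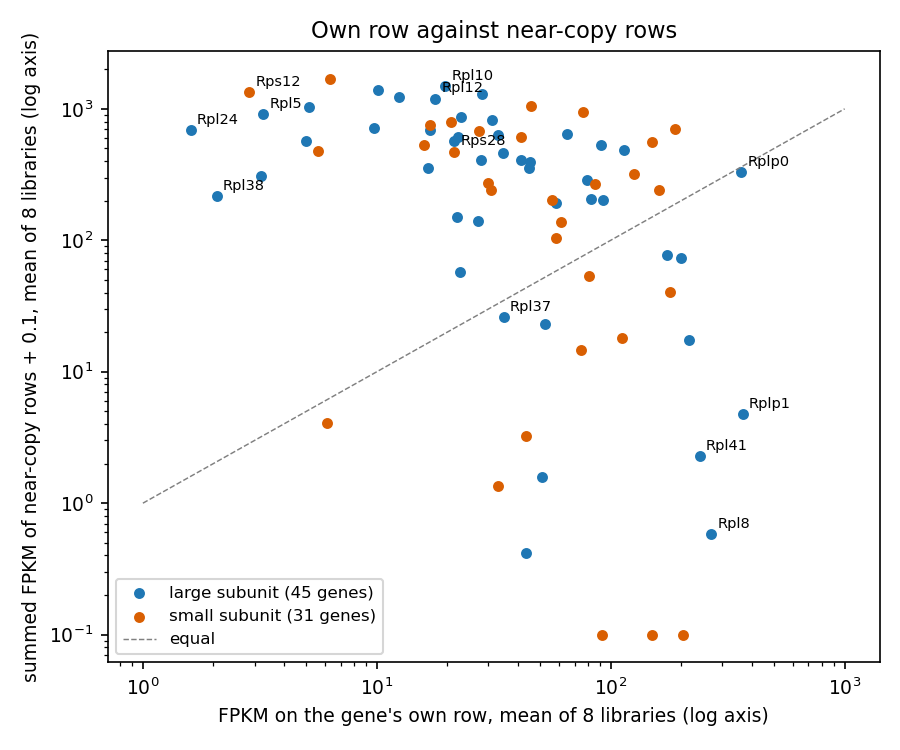
Mean FPKM over 8 libraries on each gene's own row (x axis, log scale) and the summed mean FPKM of its near-copy rows plus 0.1 (y axis, log scale) for 76 ribosomal protein genes, large subunit in blue and small subunit in orange. The 55 genes above the dashed line of equal values, Rps12 and Rpl24 among them, have more signal on copies than on their own row, and Rplp1, Rpl8 and Rpl41 lie far below the line.

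To set the libraries side by side, each gene's log2(FPKM + 1) was centred on its mean over the 8 libraries. The mean of the 76 members on SFM matrix was 0.04 with siNT, 0.22 with siFN, -0.19 with siKLF4 and 0.08 with siKLF4-siFN. On TCM matrix it was 0.04, -0.10, -0.01 and -0.06 in the same order. The mean over all tested genes stayed between -0.03 and 0.05. On their own rows the members as a group thus stood highest in SFM siFN, where 66 of 76 were above their own mean. They stood lowest in SFM siKLF4, where 12 were above theirs. With near-copies added, SFM siKLF4-siFN was the highest, at 0.26 against 0.20 in SFM siFN, and SFM siKLF4 stayed the lowest, at -0.26.

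SFM siFN was the highest library for 27 members (35.5%), against 10.9% of all tested genes. SFM siKLF4 was the lowest for 34 (44.7%), against 11.9%. SFM siKLF4-siFN was the highest for 27 (35.5%, against 31.0%) and the lowest for 16 (21.1%, against 27.1%). That library also had the widest spread between members, an SD of 0.38 against 0.13 to 0.21 in the others. With 1 library per condition these shares have no replicate check, and the estimated depth of SFM siKLF4 was the lowest of the 8.

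The subunits were set side by side by their means. Large minus small subunit mean on SFM matrix was -0.03 with siNT, -0.04 with siFN, 0.07 with siKLF4 and -0.02 with siKLF4-siFN. It was -0.03, 0.03, -0.01 and 0.02 in the TCM libraries in the same order of siRNA. With 1 library per condition these differences were not tested. The sign turned in SFM siFN (0.00413) when -ps rows were added to their parents, and the value in SFM siKLF4 became 0.00234 when all near-copies were.

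**Figure D2:**
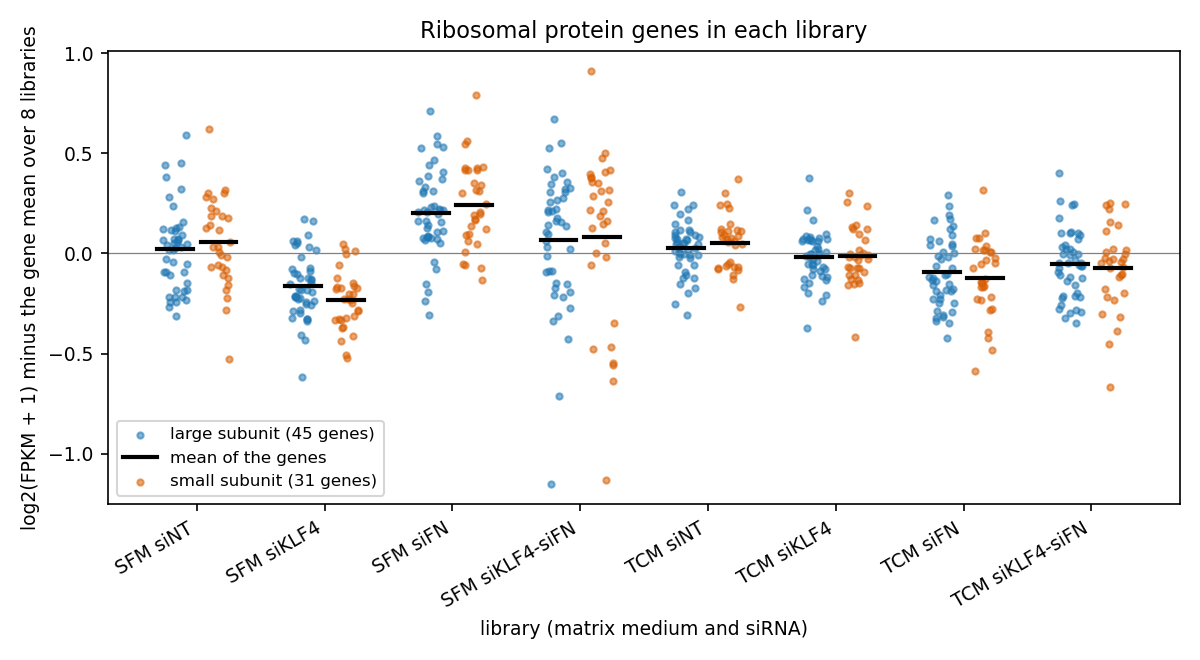
Centred own-row log2(FPKM + 1) of 45 large (blue) and 31 small (orange) subunit genes in each of the 8 libraries, 1 point a gene, with the mean of each set as a black bar. The bars are highest in SFM siFN and lowest in SFM siKLF4, and the points spread most in SFM siKLF4-siFN.

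The design crosses medium, siKLF4 and siFN, so each was tested with limma over all 6917 genes, in an additive model in which libraries sharing a level stand in for replicates. No member was called at an adjusted p under 0.05 for medium, siKLF4 or siFN, and neither was any other gene (0% of genes tested). At an unadjusted p under 0.05 there were 6 members among 464 genes for medium, 1 among 84 for siKLF4 and 0 among 84 for siFN. The member medians were -0.07, -0.09 and 0.09 on the log2 scale, against 0.02, 0.01 and -0.02 for all tested genes. For siKLF4, 57 of 76 members were below 0 and 25% above, against 52.5% of tested genes above. For siFN 60 (78.9%) were above 0, against 43.6% of tested genes. These medians rested on single libraries: without SFM siKLF4 that of siKLF4 turned to 0.00852 and that of siFN to -0.000403, and without TCM siFN they were -0.16 and 0.16. That of medium ranged from -0.12 without SFM siKLF4 to -0.00434 without TCM siFN.

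Differences by medium ran both ways among single members. Rps12, a small subunit protein of the beak region, was lower on TCM matrix in all 4 pairs of libraries, by a log2 difference of -0.92 ± 0.19 (SE), and Rpl24, which forms a bridge between the subunits, was lower in all 4, at -0.51 ± 0.13. The limma adjusted p-values were 0.371 and 0.483. These are own-row values, which held 0.213% and 0.233% of the signal summed with near-copies. In the sums the siKLF4 pair turned: Rps12 had 973 FPKM on SFM and 1202 on TCM matrix, and Rpl24 538 and 655. On their own rows Rps7 (0.55 ± 0.13) and Rpl23 (0.39 ± 0.11) were higher in all 4 pairs, with adjusted p-values of 0.449 and 0.523. The own row held 0.369% of the summed signal for Rps7 and 99.3% for Rpl23. With near-copies the siFN pair of Rps7 turned, with 2064 FPKM on SFM and 1689 on TCM matrix. On SFM matrix Rpl23 had 36.9 FPKM with siNT, 38.7 with siFN, 36.7 with siKLF4 and 38.1 with siKLF4-siFN, and on TCM matrix 48.6, 52.98, 45.4 and 51.1. Every TCM library of Rpl23 was above every SFM library. For siKLF4 the smallest p among members belonged to Rpl34, at -0.49 ± 0.17 and an adjusted p of 1, lower in 3 of 4 pairs.

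The question left by those models is whether the medium mattered differently once siFN had been given. With a medium by siFN term in the model, 496 of 6917 genes (7.17%) and 0 of 76 members passed, 22 members at an unadjusted p under 0.05 among 2323 genes. The member median was -0.36, against -0.06 for all genes, and 59 of 76 members were below 0. Above 0 were 22.4% of members and 45.6% of tested genes. Among the closest were Rpl28 at -0.92 ± 0.22 (adjusted p = 0.0575), Rps15a at -0.89 ± 0.23 (0.0615) and Rplp0 at -0.91 ± 0.25 (0.0676), each below 0 in both pairs. Without SFM siKLF4 the median was -0.21, with 7 members at an unadjusted p under 0.05, and with each library left out that count was 6 (without TCM siFN) to 27 (without SFM siFN). Without SFM siFN, which leaves 1 SFM library with siFN, the member median was -0.41 (all genes -0.10). With near-copies or -ps rows added 1 member passed, Rpl10 (-1.12 for either sum). In these fits 580 of 6599 and 541 of 6796 genes passed. Rpl10, which joins the large subunit late in its assembly, is also the member with 1482 FPKM of near-copies.

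The term splits into its parts. On the SFM matrix, siFN went with a higher level in most members. The median was 0.27 (all genes 0.01), and 59 of 76 members (77.6%) were above 0, against 50.7% of tested genes. In 51 (67.1%) both pairs were higher, against 35.7% of tested genes. No member was called, with 6.92% of all genes called, and 25 members had an unadjusted p under 0.05 among 2319 genes. The median was 0.12 without SFM siKLF4, with 3 members at an unadjusted p under 0.05, and 0.42 without SFM siNT, and that count was 6 without SFM siKLF4-siFN. On the TCM matrix the median was -0.09 (all genes -0.04). Of 76 members 57 were below 0 and 25% above, against 41.9% of tested genes above. In 40 (52.6%) both pairs were lower, against 40% of tested genes. There 0% of genes were called, and 2 members had an unadjusted p under 0.05 among 391 genes. This median was -0.03 without TCM siFN and -0.19 without TCM siKLF4-siFN. In 32 members (42.1%) all 4 pairs followed this split, against 24.5% of tested genes.

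The siFN difference of the member mean was 0.18 without and 0.27 with siKLF4 on SFM matrix, and -0.14 and -0.04 on TCM matrix. Over the same libraries the mean centred level of 17 mitosis genes on SFM matrix was 0.61 with siNT, -1.21 with siFN, 0.63 with siKLF4 and -1.24 with siKLF4-siFN, and on TCM matrix -0.59, 0.62, 0.56 and 0.63. That of 22 amino acid and ER stress genes was, in this order, -0.14, 0.20, -0.20 and 0.32 on SFM and 0.21, -0.18, -0.02 and -0.18 on TCM matrix. The SFM libraries with siFN were thus low for mitosis genes and high for stress genes. The own-row member mean was 0.22 in SFM siFN but 0.08 in SFM siKLF4-siFN, near the 0.04 of SFM siNT and of TCM siNT. The correlation of centred level with GC content over all tested genes also moved with these libraries: SFM siKLF4-siFN had 0.53 and SFM siFN 0.03, against -0.37 in TCM siFN, -0.43 in TCM siKLF4-siFN and -0.43 in SFM siKLF4, the libraries low for the members. It was -0.23 in SFM siNT, 0.17 in TCM siNT and 0.21 in TCM siKLF4. The part of mitosis genes, stress genes or GC content in the member differences was not tested.

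**Figure D3:**
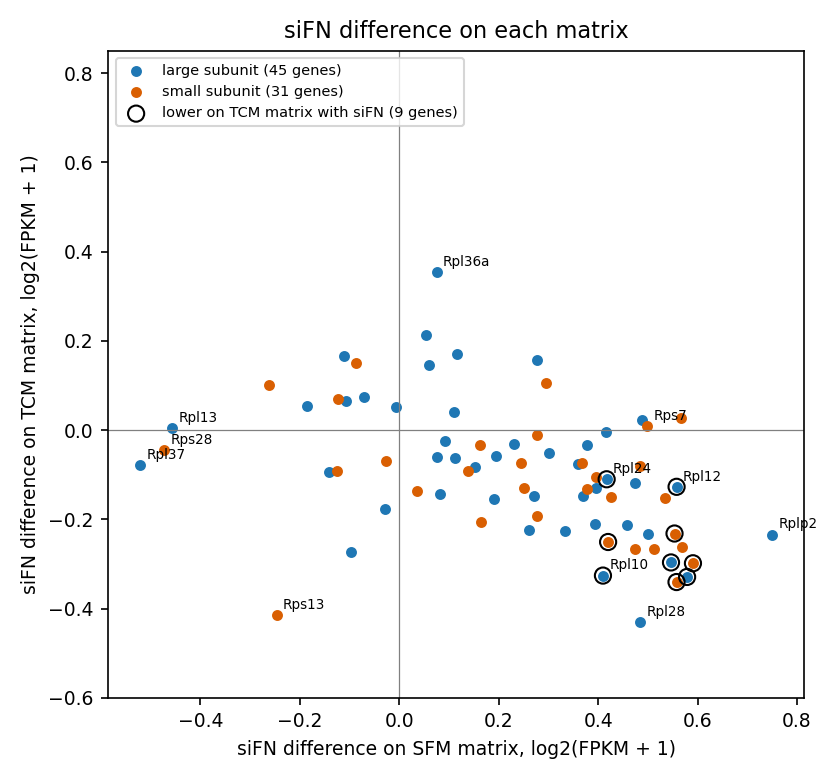
Fitted siFN difference in log2(FPKM + 1) on SFM matrix (x axis) and on TCM matrix (y axis) for 76 ribosomal protein genes, 1 point a gene, large subunit in blue and small in orange. Most points lie right of 0 and below 0, and the 9 circled genes, called lower on TCM than on SFM matrix with siFN, are among them, while Rpl13, Rpl37 and Rps28 lie left of 0.

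Between the media, the 2 SFM libraries with siFN were set against the 2 TCM libraries with siFN. Here 9 of 76 members (11.8%) were called, all lower on TCM matrix, against 16.9% of all genes called and 8.53% called lower. The share of members lay near that background and is not read as a result about the group. The member median was -0.21 (all genes -0.01), and 58 of 76 were below 0. Above 0 were 23.7% of members and 48.9% of tested genes. In 44 members (57.9%) both SFM libraries lay above both TCM libraries, against 35.4% of tested genes. Without siFN the median was 0.10 (all genes 0.03), and 52 of 76 members (68.4%) were above 0, against 55.4% of tested genes. No member and no gene (0%) was called, with 6 members among 627 genes at an unadjusted p under 0.05. That median was 0.00957 without SFM siKLF4 and 0.18 without SFM siNT.

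Of the 9, 7 are described, 3 of the small and 4 of the large subunit. Rps12 changed most. Rps12 was measured at 3.47, 4.31, 2.72 and 5.76 FPKM with siNT, siFN, siKLF4 and siKLF4-siFN on SFM matrix, and at 1.99, 1.57, 1.69 and 1.26 FPKM on TCM matrix. All SFM libraries were above all TCM libraries, and SFM siKLF4-siFN was the highest. With siFN its log2 difference, TCM minus SFM, was -1.31 ± 0.17 (limma adjusted p = 0.0243), and without siFN -0.53 ± 0.17 (0.541). With near-copies added the first was -0.74 ± 0.17 (0.0362), and the second turned to 0.10. At its lowest, about 14.1 reads lay behind the own-row value, a counting error of 26.7%. Read numbers come from the approximate depth and the longest coding transcript. The counting error leaves out how reads shared with copies were placed.

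Rpsa, a small subunit protein also known as the laminin receptor, differed by -0.81 ± 0.19 (adjusted p = 0.0408). The FPKM of Rpsa on SFM matrix was 177 with siNT, 195 with siFN, 124 with siKLF4 and 203 with siKLF4-siFN, and on TCM matrix 139, 109, 131 and 118 in the same order. For Rpsa the SFM siNT library stood nearly as high as those with siFN. Rps15a, a small subunit protein, differed by -0.62 ± 0.16 (0.0467). On SFM matrix Rps15a had 19.1 FPKM with siNT, 27.4 with siFN, 15.96 with siKLF4 and 26.2 with siKLF4-siFN, and on TCM matrix 23.9, 16.5, 18.7 and 17.5. Here TCM siNT lay above SFM siNT, so the order of the media turned with siFN.

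Among large subunit members, Rpl24 differed by -0.77 ± 0.11 (adjusted p = 0.0243) on own-row levels near the filter. Rpl24 was measured at 1.64, 2.30, 1.62 and 2.73 FPKM with siNT, siFN, siKLF4 and siKLF4-siFN on SFM matrix, and at 1.13, 1.03, 1.29 and 1.07 FPKM on TCM matrix. Its 4 TCM libraries were all below its 4 SFM libraries, with about 10.6 reads behind the lowest value. With near-copies added the difference was -0.56 ± 0.16 (0.0534) and no longer called. Rpl12, at the base of the stalk, differed by -0.66 ± 0.14 (0.0347), and by -0.53 ± 0.16 (0.0612) with near-copies. The FPKM of Rpl12 on SFM matrix was 16.2 with siNT, 25.5 with siFN, 15.6 with siKLF4 and 22.4 with siKLF4-siFN, and on TCM matrix 18.01, 15.9, 14.6 and 13.7 in the same order. The SFM pair with siFN lay above the other 6 libraries of Rpl12.

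Rplp0, which anchors the stalk, had the highest own-row FPKM of the 9 and differed by -0.76 ± 0.18 (adjusted p = 0.0376). On SFM matrix Rplp0 had 367 FPKM with siNT, 454 with siFN, 282 with siKLF4 and 510.1 with siKLF4-siFN, and on TCM matrix 371, 278, 341 and 288. The same 2 SFM libraries were the highest, and SFM siKLF4 was as low as the TCM libraries with siFN. Rpl10 differed by -0.71 ± 0.16 (0.0360). Rpl10 was measured at 20.9, 24.4, 16.8 and 26.1 FPKM with siNT, siFN, siKLF4 and siKLF4-siFN on SFM matrix, and at 19.2, 15.2, 19.02 and 14.9 FPKM on TCM matrix. Its near-copies differed more, and the sum of row and copies gave -0.98 ± 0.17 (0.0232).

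**Figure D4:**
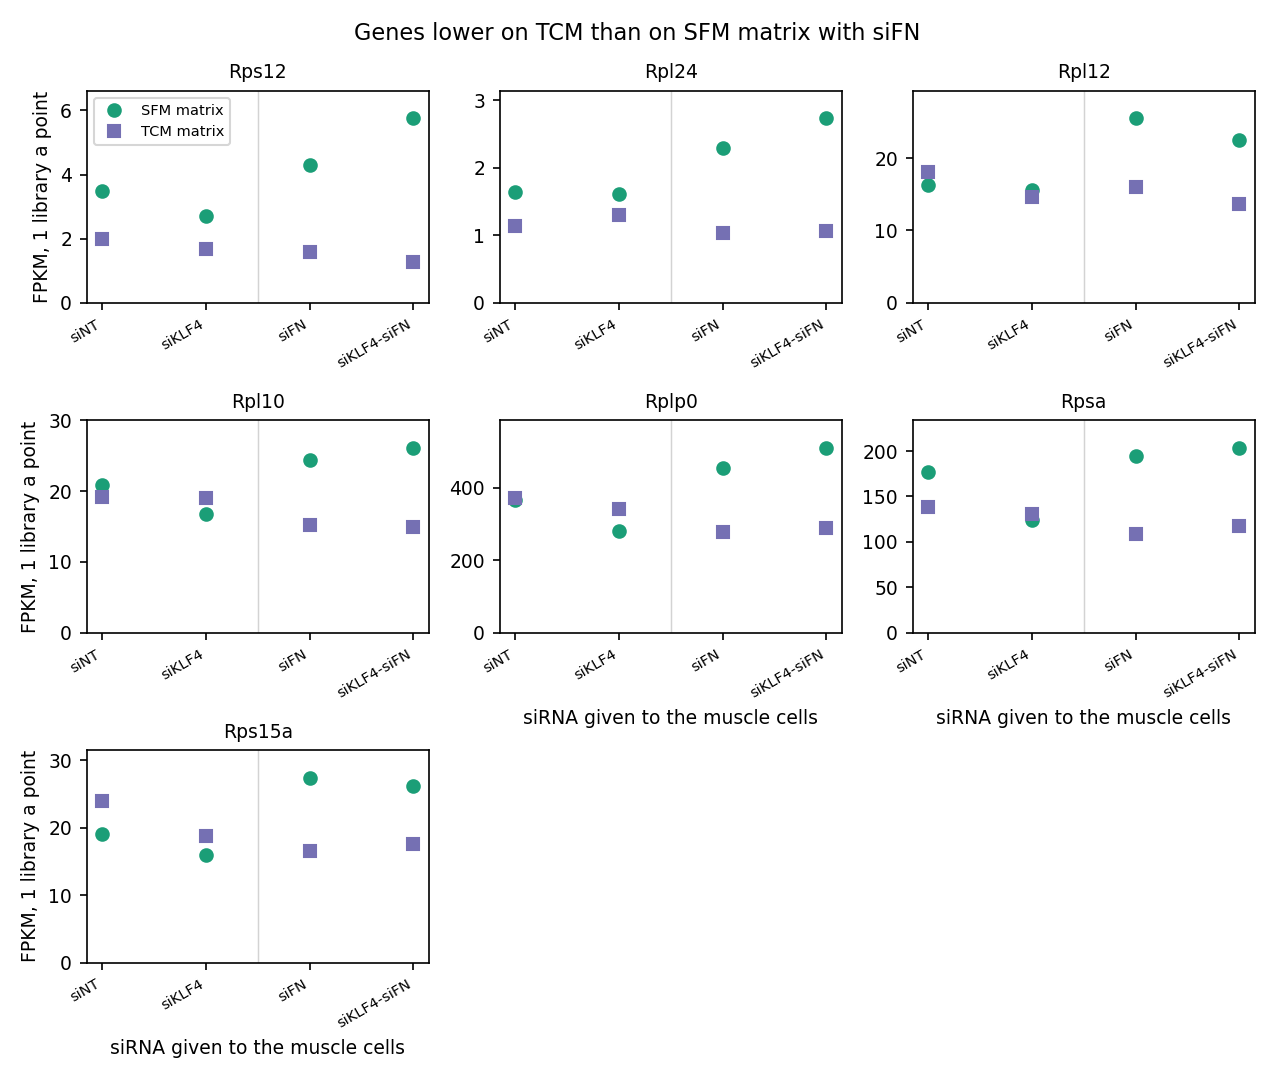
FPKM of 7 of the 9 ribosomal protein genes called lower on TCM than on SFM matrix with siFN, 1 library a point, with SFM matrix as green circles and TCM matrix as purple squares and the 4 siRNA treatments on the x axis. Right of the grey line, in the libraries with siFN, every circle is above every square, while left of it their ranges overlap in all but Rps12 and Rpl24.

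These calls leaned on single libraries, as did those over all genes. Leaving out TCM siNT or TCM siKLF4 left 3 members called, among 802 and 805 of 6917 genes. Leaving out SFM siNT or SFM siKLF4 left 6, among 495 and 501 genes. Without a library with siFN, 1 remains on that matrix, so only the member median is given. It was -0.17 without TCM siFN and -0.29 without TCM siKLF4-siFN. It was -0.26 without SFM siFN and -0.23 without SFM siKLF4-siFN. The direction held in all of these for the 9, with Rps12 between -1.59 and -1.04 and Rps15a between -0.77 and -0.48. With near-copies added to their parents 12 members were called, all lower, among 1206 of 6599 genes called. Rpl12 and Rpl24 dropped out, and Rpl10a, Rpl34, Rps13, Rps20 and Rps27 came in.

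Of the 18 members above 0, Rpl36a, Rpl23 and Rps7 were higher on TCM matrix with siFN in both pairs, by 0.42 ± 0.14, 0.43 ± 0.14 and 0.31 ± 0.12 (adjusted p = 0.0702, 0.0752 and 0.12). Without siFN, Rps7 had the smallest p of all members, at 0.80 ± 0.12 (adjusted p = 0.284). The FPKM of Rps7 on SFM matrix was 3.94 with siNT, 5.84 with siFN, 3.96 with siKLF4 and 6.14 with siKLF4-siFN, and on TCM matrix 7.41, 7.89, 7.79 and 7.42 in the same order. SFM siNT and SFM siKLF4 of Rps7 were the lowest, the other SFM libraries were between, and the TCM libraries were highest. Rps7 has 1700 FPKM of near-copies, and with these added its difference with siFN was -0.11. Rpl28 was also higher on TCM matrix without siFN, by 0.65 ± 0.16 (0.479), and its near-copy Rpl28-ps1 had 391 and 444 FPKM in SFM siNT and SFM siKLF4 against 676 and 627 in TCM siNT and TCM siKLF4.

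The members farthest from their mean in SFM siKLF4-siFN are given because that library stood apart over all tested genes. There 6 members lay more than 0.5 below their mean, against 13.9% of tested genes, and 5 lay more than 0.5 above it, against 7.6%. These are 7.89% and 6.58% of 76, below the background, and are not read as a result about the group. Rpl37, a zinc finger protein of the large subunit, and Rps28, a small subunit protein at the mRNA exit, were the farthest below, at -1.15 and -1.13. On SFM matrix Rpl37 had 34.1 FPKM with siNT, 41.5 with siFN, 37.8 with siKLF4 and 14.5 with siKLF4-siFN, and on TCM matrix 41.6, 35.2, 35.9 and 37.9. Rps28 was measured at 23.5, 25.8, 19.7 and 8.84 FPKM with siNT, siFN, siKLF4 and siKLF4-siFN on SFM matrix, and at 24.5, 21.8, 22.8 and 24.1 FPKM on TCM matrix. In both the other 7 libraries were close together and this library was the lowest by more than 2-fold. Rpl13 (-0.71), Rps13 (-0.64), Rps23 (-0.56) and Rps29 (-0.55) completed the low set, and Rps12 (0.91), Rplp2 (0.67), Rpl24 (0.55), Rplp0 (0.53) and Rps18 (0.50) the high set.

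Adding near-copies changed the low set. In SFM siKLF4-siFN the sum of row and copies was 0.30 above its mean for Rps28, 0.21 for Rpl13, 0.50 for Rps13, 0.34 for Rps23 and 0.11 for Rps29, and it stayed below for Rpl37, at -0.58. The highest copy of Rps28, Gm10443, had 480.1 FPKM in this library and 261 to 419 in the others. Rps13-ps2 had 467 FPKM there, close to 465 in SFM siFN, while Rps13 itself had 3.0 against 9.74. For the 5 high members the sums remained above their means, at 0.36 to 0.67. Over all 76 the mean in this library was 0.26 with near-copies and 0.08 without, and the SD between members was 0.26 and 0.38.

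**Figure D5:**
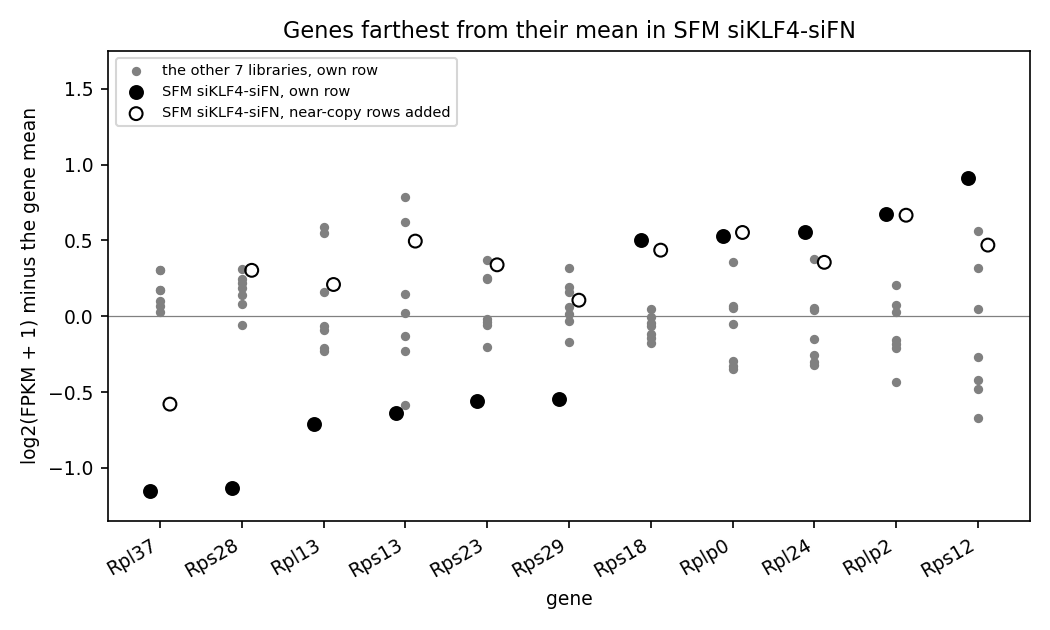
Centred log2(FPKM + 1) of the 11 genes more than 0.5 from their mean in SFM siKLF4-siFN, with the own row of that library as a filled circle, the sum of own row and near-copies in that library as an open circle, and the other 7 libraries as grey points. Of the 6 low genes on the left, only Rpl37 stays below 0 when copies are added.

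Further members are given for their role. Rps6, the small subunit protein phosphorylated by S6 kinase, had its lowest own-row value in SFM siKLF4-siFN, with 32.1 FPKM against 40.6 to 53.6. That row held 4.18% of its summed signal. With near-copies added the same library was its highest, with 1230 FPKM against 896 to 1180 in the others. Rps3, at the mRNA entry, was highest in that library at 189 FPKM, against 118 to 161 in the others. Rps27a, made as a fusion to ubiquitin, had 13.1 to 20.8 FPKM, lowest in SFM siKLF4 and highest in SFM siFN. Rpl39, which lines the exit tunnel, had 47.7 to 77.3 FPKM. Rpl5 had 2.83 FPKM in SFM siKLF4-siFN and 3.41 to 3.46 in the other SFM libraries.

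Over the 8 libraries the median SD of a member's log2(FPKM + 1) was 0.21, against 0.20 for all tested genes and 0.25 for the 1468 with a mean of at least 10 FPKM. A range over 1 was reached by 8 members, against 19.2% of tested genes. Rps12 (0.56), Rps13 (0.51), Rpl37 (0.48), Rps28 (0.47) and Rpl13 (0.43) varied most. Rpl31 (0.09), Rpl5 (0.11), Rpl27 (0.11), Rps24 (0.11) and Rpl35a (0.12) varied least. Rpl31, Rpl5 and Rpl27 each held under 1% of their summed signal on their own row. The first axis of a singular value decomposition of the 76 centred profiles held 48.6% of the variance and set both SFM libraries with siFN against SFM siKLF4 and the TCM libraries with siFN. The second, with 29.4%, set SFM siKLF4-siFN against SFM siFN and SFM siNT.

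The mean of the other members was followed closely by Rplp1 (Pearson r = 0.94 over 8 libraries). The FPKM of Rplp1 on SFM matrix was 436 with siNT, 486 with siFN, 232 with siKLF4 and 418 with siKLF4-siFN, and on TCM matrix 375, 314, 358 and 308 in the same order. Rplp1 was highest in SFM siFN and lowest in SFM siKLF4, with nearly all of its signal on its own row. Rpl36a (-0.43), Rpl7a (-0.40), Rpl41 (-0.39) and Rpl21 (-0.38) ran against the mean. On SFM matrix Rpl41 had 202 FPKM with siNT, 202 with siFN, 225 with siKLF4 and 256 with siKLF4-siFN, and on TCM matrix 243, 254, 278 and 257. Rpl41 was lowest in SFM siFN and SFM siNT and highest in TCM siKLF4. The libraries, and with them depth and base composition, are shared by all these profiles.

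Outside the members, the 10 named genes most like the member mean over the 8 libraries were Tomm5 (r = 0.99), Tmem199 (0.98), Tmem203 (0.97), Pisd (0.97), Cct2 (0.95), Nhp2l1 (0.95), Rpl36al (0.95), Timm8a1 (0.95), Eif4h (0.95) and Mrpl3 (0.94). Rpl36al is a ribosomal protein gene whose suffix of 2 letters the rule does not take. Tomm5 had 7.74 FPKM in SFM siKLF4 and 12.3 in SFM siFN, its extremes.

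The other genes of the pathway were taken from lists set with earlier results of these data known. They are given for the medium by siFN term, with 7.17% of all genes called, and for TCM minus SFM with siFN, with 16.9% called. Of 7 ribosomal proteins outside the rule, 1 was called lower in each: Fau, the ubiquitin-like fusion of a small subunit protein, in the first (-0.82 ± 0.18, adjusted p = 0.0465), and Gnb2l1, which encodes RACK1, in the second (-1.01 ± 0.19, 0.0297). Fau lay near the filter, with 0.945 FPKM in SFM siKLF4 to 2.15 in TCM siKLF4. The list medians were -0.65 and -0.22. Gnb2l1 was measured at 160.3, 208, 111 and 217 FPKM with siNT, siFN, siKLF4 and siKLF4-siFN on SFM matrix, and at 143, 102, 125 and 108 FPKM on TCM matrix. Gnb2l1 was highest in the SFM libraries with siFN and lowest in the TCM libraries with siFN.

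Of 45 tested ribosome biogenesis genes, 10 were called lower and 0 higher for the term (median -0.48), and 12 lower and 2 higher for TCM minus SFM with siFN (median -0.24). The 5 with the smallest p were Mybbp1a, Rrp9, Pwp2, Nop2 and Noc2l, nucleolar proteins, with values of -1.54 ± 0.25 to -0.86 ± 0.14 for the term. The FPKM of Nop2 on SFM matrix was 5.52 with siNT, 10.1 with siFN, 5.49 with siKLF4 and 11.9 with siKLF4-siFN, and on TCM matrix 8.78, 6.22, 7.28 and 6.32 in the same order. Nop2 had its highest values in the SFM libraries with siFN and its lowest in the SFM libraries without. Of 25 translation factors and other terminal oligopyrimidine genes, 1 was called lower for the term (Fau), and 1 higher (Hnrnpa1) and 1 lower (Gnb2l1) for the comparison with siFN. Eef2, the elongation factor of translocation, had -1.01 ± 0.24 for the term (0.0549).

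Of 15 RNA polymerase I genes, 1 was called higher for the term, Taf1d (1.96 ± 0.44, adjusted p = 0.0483), and for the comparison with siFN 1 higher and 1 lower, Polr1b (-0.44 ± 0.12, 0.0475). Of 12 regulators of ribosomal protein synthesis, 1 was called lower for the term, Myc (-1.12 ± 0.22, 0.0432), a transcription factor that acts on many ribosomal protein and nucleolar genes. On SFM matrix Myc had 11.2 FPKM with siNT, 19.8 with siFN, 9.97 with siKLF4 and 16.3 with siKLF4-siFN, and on TCM matrix 20.0, 12.8, 15.3 and 13.1. Myc was lowest in SFM siNT and SFM siKLF4 and highest in TCM siNT and SFM siFN. In the comparison with siFN 2 regulators were called higher and 1 lower.

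Among 64 mitochondrial ribosomal protein genes, 2 were called higher and 4 lower for the term (median -0.24) and 3 higher and 6 lower with siFN (median -0.17). Of the 121 tested rows with -ps names of members, 5 were called lower for the term (median -0.45) and 22 lower with siFN (median -0.43), and none higher in either. Of the mitosis genes, 16 of 17 were called higher for the term and 17 with siFN, and of the stress genes 5 and 10 of 22 were called lower. The comparisons share libraries, so their counts are given side by side.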

How the data were processed

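RNA of B16-F10 cells was measured in 8 libraries, 1 per condition, and the authors deposited FPKM values. STAR 2.4.1d, Partek and build mm10 are named, per the submitters' processing notes. The counting rule, treatment of reads that map to several places, annotation, strand setting and replicate cultures were not given in the sources used here. How such reads were placed bears on members and their copies, and overlapping or antisense genes may share reads.

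Values were analysed as log2(FPKM + 1), a scale that understates changes of low genes, in rows with a mean FPKM of at least 1. limma 3.58.1 in R 4.3.3 was fitted over all 6917 rows with a variance trend, two-sided, with Benjamini-Hochberg adjustment over all of them at 0.05. The additive model of medium, siKLF4 and siFN left 4 residual degrees of freedom, and the model with medium by siFN left 3. All values after ± for these models are standard errors. Since no label names separate cultures, p-values reflect the spread between these libraries alone, which may be technical. The models were tested on simulated data. Members and lists were chosen with earlier results of these data known.

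Symbols were matched to GENCODE M21 on GRCm38 for 42026 rows (90.4%) and for 81 of 81 members. Depth was approximated from FPKM steps: 44.3% to 48.1% of low values in genes with 1 transcript over 600 bases came within 0.05 of a whole read, and no count test was run. Members named are the 5 highest and 5 lowest, in each direction of each contrast the 4 of smallest p, members called, the 5 most and 5 least variable, and a list by role. Some members that this rule names are not reported here. Members singled out in SFM siKLF4-siFN and the -ps examples were chosen after their values were seen, and so was the addition of near-copy rows to their parents. Other alternatives were the pseudocount, the filter, rescaling to TPM, median scaling, adding -ps rows, siRNA as a block and leaving out each library.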

Additional observations from a re-analysis of the deposited data

Results flagged for a closer look

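In the 4 SFM libraries, 2 members had a library far from the other 3. Rpl5 lay low in SFM siKLF4-siFN, at 1.94 on the log2(FPKM + 1) scale. Rps27 lay low in SFM siKLF4, at 2.28. Among 90 sets of 4 libraries examined, chance marks about 1 in 20.

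The siFN difference of the member mean had opposite signs on the matrices. Both SFM pairs were above 0 and both TCM pairs below 0, and TCM minus SFM came to -0.32 for all 76 members, -0.28 for the 45 of the large and -0.37 for the 31 of the small subunit. These differences of means were not tested.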

How the results depend on the processing

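No paired analysis was possible because of replicate numbers, which are the same for all 8 libraries. The media can be paired within each siRNA: with the siRNA treatment as a block of 4 levels, 0 members were called for medium, as without it. Of TCM minus SFM with siFN, 9 members were called among 1172 genes. It was 7 to 12 members among 626 to 1206 genes with another pseudocount, a filter at 5 FPKM, TPM, median scaling, -ps rows or near-copies. It was 0 with no filter, where 14 of 21556 rows were called. With 1 library without siFN left out it was 3 to 6, among 495 to 805 genes. The medium by siFN term had 0 members called, 1 with -ps rows and 1 with near-copies. The siFN difference on SFM matrix had 0, 1 (Rpl12) with -ps rows and 1 (Rpl10) with near-copies, among 532 and 577 genes. With 1 library left out, the member median was -0.47 to -0.21 for the term and 0.12 to 0.42 for this siFN difference. Calls are not counted here for fits that leave 1 library in a compared group.

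Large minus small subunit with -ps rows became -0.0556 in SFM siKLF4-siFN and 0.00413 in SFM siFN. With near-copies it was 0.00234 in SFM siKLF4, -0.101 in SFM siKLF4-siFN and 0.0653 in TCM siKLF4-siFN, with a range over libraries of 0.167.

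No member was called in a comparison in which its sign turned, though Rps12 and Rpl24 were called in another. With -ps rows and with near-copies, the medium difference of Rpl21 was -0.022 and -0.038, the siFN difference of Rpl38 0.31 and 0.31, of Rps13 0.11 and 0.11, and of Rpl7a 0.049 and 0.051. In the same order the term of Rpl36a was -0.21 and -0.22, and TCM minus SFM without siFN of Rps12 was 0.11 and 0.10. With -ps rows alone the siKLF4 difference of Rpl9 was -0.0053. With near-copies alone TCM minus SFM was 0.11 for Rpl24 without siFN and -0.11 for Rps7 with siFN, the term of Rpl13 was -0.32, and the siFN difference on SFM matrix was 0.19 for Rpl13 and 0.44 for Rps28. With 1 library left out, the siFN difference of Rpl37 ranged from -0.52 to 0.030 and the term of Rpl13 from -0.11 to 1.03, and the siFN difference on SFM matrix from -1.02 to 0.11 for Rpl13, -1.25 to 0.21 for Rpl37 and -1.16 to 0.22 for Rps28. In each, the sign turned without SFM siKLF4-siFN. The causes were not tested. At low levels depth limits precision: the lowest own-row value of Rpl38 rests on about 8.58 reads, a count with a counting error of 34.1%. That error leaves out how reads shared with copies were placed.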
